A study of Mus musculus with 2 samples.

Results

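Mir199a-1, Mir199a-2, Mir199b and Mir214 are 4 of the 1973 microRNA (miRNA) genes counted in the neural tube of mouse embryos at embryonic day 11.5 (E11.5). They were taken by name, through their Ensembl gene identifiers, and all 4 had a count in both libraries. The samples form 1 group of strain B6NCrl embryos, healthy and with no treatment or allele in the labels. Replicate 1 pooled the neural tubes of 109 embryos and replicate 2 those of 88, male and female together. RNA under 30 nt was sequenced from the whole tissue. There is no second group, so the data give a level for each gene and the difference between 2 pools of the same tissue.

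MicroRNAs are cut from hairpin precursors, and each arm of a hairpin (5p or 3p) can give a mature miRNA that guides repression of mRNAs matching its seed, bases 2 to 8. In the mouse, Mir199a-2 and Mir214 are made from one noncoding host transcript, Dnm3os, which is active in embryonic mesenchyme and is needed for normal skeletal growth. All of these genes lie on the strand opposite a dynamin gene. Mir214 is known to act on the chromatin repressor Ezh2 in mouse muscle and, in zebrafish, on the Hedgehog pathway inhibitor Sufu. Mesenchyme lies next to the neural tube in the embryo.

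The mature sequences, from RefSeq on GRCm38.p6, show what the family shares and what sets Mir214 apart. Each is written 5′ to 3′ with its seed in capitals.
miR-199a-5p: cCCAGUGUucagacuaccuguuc
miR-199a-3p: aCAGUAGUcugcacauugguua
miR-214-5p: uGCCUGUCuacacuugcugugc
miR-214-3p: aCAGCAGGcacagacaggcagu
The sequence of miR-199a-5p occurs in 2 hairpins of the RefSeq table, Mir199a-1 and Mir199a-2. That of miR-199a-3p occurs in 3, since miR-199b-3p of Mir199b has the same letters. Each mature miRNA of Mir214 occurs in the Mir214 hairpin and in no other. The hairpin of Mir199b holds a stretch that differs from miR-199a-5p by the single substitution C10U, counted from 1 at the 5′ end of miR-199a-5p. That stretch is shown with the changed base in capitals.
Mir199b, bases 26 to 48 of the hairpin: cccaguguuUagacuaccuguuc
The substitution lies outside bases 2 to 8, so this stretch carries the seed of miR-199a-5p. The RefSeq table used here lists no 5p miRNA for Mir199b, so the stretch is not in capitals as a mature miRNA below. Reads are counted per hairpin gene, so the arms were not told apart in any value given here.

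The whole hairpins show where the arms lie, with the mature miRNAs of the RefSeq table in capitals.
Mir214: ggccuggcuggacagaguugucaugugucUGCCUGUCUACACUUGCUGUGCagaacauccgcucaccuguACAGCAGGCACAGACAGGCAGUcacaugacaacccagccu
Mir199b: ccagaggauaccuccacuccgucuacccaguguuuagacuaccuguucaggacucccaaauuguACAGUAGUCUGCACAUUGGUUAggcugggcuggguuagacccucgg
Mir199a-2: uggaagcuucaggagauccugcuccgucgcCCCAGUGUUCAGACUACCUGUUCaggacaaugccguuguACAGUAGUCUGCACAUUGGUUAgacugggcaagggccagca
Mir199a-1: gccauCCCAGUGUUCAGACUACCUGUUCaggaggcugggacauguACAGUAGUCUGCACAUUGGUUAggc
The 3 Mir199 hairpins share runs of 27 or 28 nt with each other. Mir199a-2 and Mir199a-1 share 27 nt over the 5p arm, Mir199b and Mir199a-1 share 28 nt over the 3p arm, and Mir199b and Mir199a-2 share 27 nt there. Mir214 shares at most 7 nt with any of them and 13 nt with any other hairpin of the table.

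Mir214 and Mir199a-2 lie on chromosome 1, on the plus strand of GRCm38, the assembly also called mm10. Mir214 (ENSMUSG00000065516.1) spans chr1:162223368-162223477 and Mir199a-2 (ENSMUSG00000070126.1) spans chr1:162217814-162217923, with 5444 bp between them. Both overlap exons of Dnm3os in the GENCODE M21 annotation. Mir199a-2 starts 191 bp and Mir214 5745 bp from the start of this host, which spans 7928 bp. Exons of 5 of the 6 annotated Dnm3os transcripts overlap Mir199a-2, and exons of 3 overlap Mir214. On the opposite strand both lie in introns of Dnm3, which codes for a dynamin of membrane scission. Mir199b (ENSMUSG00000092807.1) lies at chr2:32318460-32318569 on the plus strand, opposite an intron of Dnm1, the neuronal dynamin. Mir199a-1 (ENSMUSG00000065547.1) lies at chr9:21496495-21496564 on the minus strand, opposite an intron of Dnm2, the widely expressed dynamin.

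**Figure D1:**
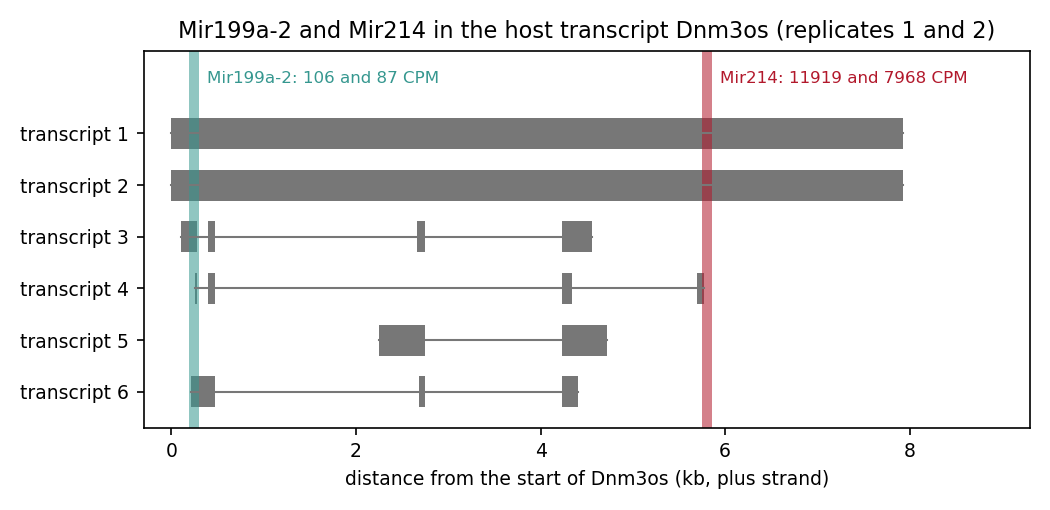
Map of the 6 annotated Dnm3os transcripts by distance from the annotated start (kb), where grey boxes are exons, grey lines introns, and coloured bands mark the Mir199a-2 and Mir214 hairpins with their CPM in replicates 1 and 2. The neighbours lie 5444 bp apart, and Mir214 had 11919 and 7968 CPM where Mir199a-2 had 106 and 87.0 CPM.

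Mir214 was the most abundant of the 4 genes by far. It had 44202 own-strand counts in replicate 1 and 32318 in replicate 2, which is 11919 and 7968 CPM (counts per 1000000 own-strand miRNA gene counts), or 9943 ± 2793 CPM (SD, n = 2). By mean CPM it ranked 20 among the 1973 genes, at 15 in replicate 1 and 25 in replicate 2. Mir23b (10094 ± 2684 CPM) and Mirlet7g (10021 ± 978 CPM) stood next above it, and Mir106b (9012 ± 407 CPM) and Mir744 (8489 ± 280 CPM) next below. The values of each of these neighbours in replicates 1 and 2 fell in a range that overlapped that of Mir214. They were picked as next to Mir214 in rank, so this overlap follows largely from the choice.

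The Mir199 genes followed at much lower counts. Mir199b had 1515 counts in replicate 1 and 1423 in replicate 2, or 409 and 351 CPM (380 ± 40.8 CPM, rank 137). Mir199a-2 had 393 and 353 counts, or 106 and 87.0 CPM (96.5 ± 13.4 CPM, rank 205). Mir199a-1 had 36 and 37 counts, or 9.71 and 9.12 CPM (9.41 ± 0.413 CPM, rank 314). The 4 genes stood in the same order in both libraries, and the ranges of neighbours in this order did not overlap. At the low end, the 95% Wilson interval of Mir199a-1 ran from 7.01 to 13.4 CPM in replicate 1 and from 6.62 to 12.6 CPM in replicate 2. A limit of 3 counts, the most that a count of 0 allows, comes to 0.809 and 0.740 CPM in replicates 1 and 2, below every value of the 4 genes. These intervals and limits cover counting error only.

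**Figure D2:**
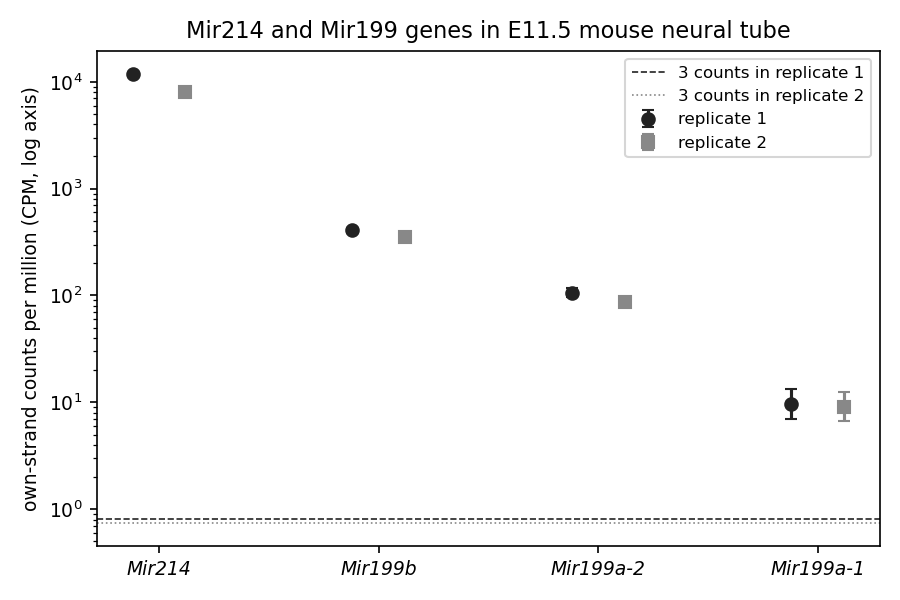
Own-strand CPM (log axis) of each gene in replicate 1 (circles) and replicate 2 (squares), with 95% Wilson intervals of counting error. Lines mark 3 counts, and the genes fall in the same order in both libraries, from Mir214 at 11919 and 7968 CPM to Mir199a-1 at 9.71 and 9.12 CPM.

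Together the 4 genes held 1.24% of own-strand counts in replicate 1 (95% Wilson interval 1.23 to 1.26) and 0.842% in replicate 2 (0.833 to 0.850), a mean of 1.04% ± 0.285 (SD, n = 2). Mir214 alone made up 95.8% and 94.7% of that sum. The 3 Mir199 genes held 0.0524% and 0.0447% of counts. The summed share is thus nearly all Mir214.

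**Figure D3:**
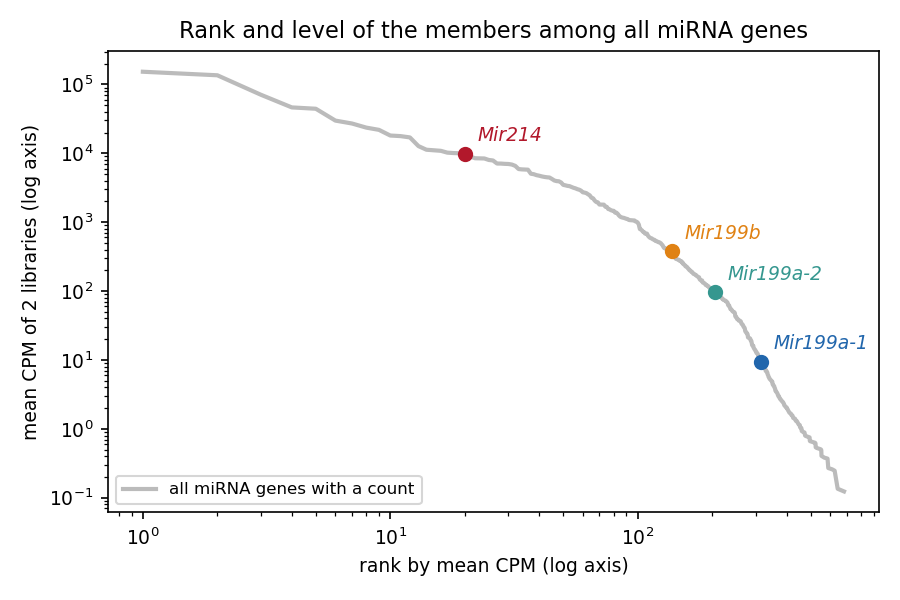
Mean CPM of the 2 libraries (log axis) against rank (log axis) for every miRNA gene with a count, with the 4 genes marked. Mir214 lies at rank 20, Mir199b at 137, Mir199a-2 at 205 and Mir199a-1 at 314.

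Among the Mir199 genes, Mir199a-1 had the largest share of its hairpin in other hairpins and the lowest count. Mir199b had the smallest share and the highest count. Reads mapped to several places stand in a row of their own in the deposited tables and belong to no gene. Of 22-nt windows, 26.5% in Mir199a-1 were also found in another mouse hairpin, against 13.5% in Mir199a-2, 8.99% in Mir199b and 0% in Mir214. The Mir199a-1 hairpin is shorter, at 70 nt against 110 nt for the others, which raises its share, and the windows behind these values number 13, 12, 8 and 0. At 16 nt, Mir199a-1 and Mir199a-2 had 25 shared windows each. Whether sharing plays a part in the order of the counts was not tested. Reads that mapped to several places were 2153217 in replicate 1 and 2088167 in replicate 2. They were 1108 and 1152 times the summed counts of the Mir199 genes, which were 1944 and 1813. How many of them came from miR-199a-5p or the shared 3p arm was not tested. The counts of Mir199a-1, Mir199a-2 and Mir199b are thus uncertain as levels of the mature miRNAs. No window of Mir214 from 16 to 25 nt recurred in another hairpin of the table, and the rest of the genome was not searched.

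**Figure D4:**
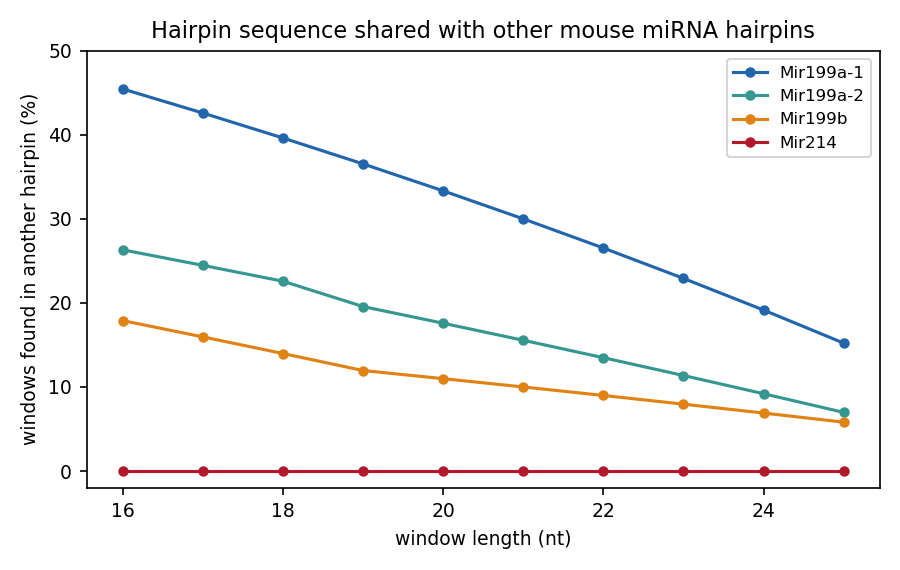
Share of all windows of a hairpin that also occur in another mouse hairpin (%), against window length in nt, with 1 line per gene. Mir199a-1 lies highest at every length, Mir199a-2 and Mir199b follow, and Mir214 stays at 0% from 16 to 25 nt.

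Other genes with shared mature sequences give a scale for these counts. Of the genes with both a row and a mature miRNA in the RefSeq table, 35 had every listed mature miRNA also in another hairpin, and 11 of these (31.4%) reached 10 summed counts. Among the 11, whose median was 32.8 CPM, Mir199a-2 held rank 5 and Mir199a-1 rank 8 by mean CPM. Mir199b held rank 2, after Mir219a-2 (7100 CPM), but it is in this class on its 3p miRNA alone, and its 5p stretch carries C10U. No 5p miRNA is listed for Mir199b, so the class does not cover reads of that arm. For every gene the class rests on listed mature miRNAs only. Of the 832 genes with no mature miRNA in another hairpin, Mir214 among them, 346 (41.6%) reached 10 summed counts, with a median of 88.7 CPM. Of the 49 genes with some but not every mature miRNA in another hairpin, 38 (77.6%) did, with a median of 70.9 CPM. The classes hold different genes, so these values do not measure reads lost to sharing, and a part played by sharing was not tested.

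By seed, the 4 genes fall into a Mir199 5p set, a Mir199 3p set and the 2 arms of Mir214. In the RefSeq table of mouse miRNAs, the seeds of miR-199a-5p, miR-199a-3p and miR-214-5p occur in no gene outside the 4. The seed of miR-214-3p, CAGCAGG, recurs in one other mouse miRNA.
miR-761: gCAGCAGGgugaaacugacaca
Its gene Mir761 had 0 counts in both libraries, which allows up to 0.809 CPM in replicate 1 and 0.740 CPM in replicate 2. The reads of Mir214 on its 5p and 3p arms are not separated, so the level of the seed itself was not measured.

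Ratios between members within a library do not depend on how that library is scaled. No length correction was made, as the listed mature miRNAs are 22 or 23 nt long. Each listed mature sequence of the Mir199 genes occurs in another hairpin, so an exact read of it fits several places. The ratios therefore compare reads counted for a gene and not levels of mature miRNAs. Mir214 exceeded its neighbour Mir199a-2 by 112-fold in replicate 1 (exact 95% interval 102 to 125) and 91.6-fold in replicate 2 (82.4 to 102). It exceeded Mir199b by 29.2-fold (27.7 to 30.7) and 22.7-fold (21.5 to 24.0). The intervals for Mir199b did not overlap between the libraries, while those for Mir199a-2 overlapped narrowly near 102. Within the Mir199 genes the libraries were close. Mir199b exceeded Mir199a-2 by 3.85-fold (3.45 to 4.32) and 4.03-fold (3.59 to 4.54), and Mir199a-2 exceeded Mir199a-1 by 10.9-fold (7.75 to 15.8) and 9.54-fold (6.79 to 13.8). The intervals treat reads as independent and leave out reads mapped to several places.

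Between the libraries, Mir214 differed more than the Mir199 genes. The split of each gene's reads was set against that of the totals in an exact binomial test (two-sided), and p-values were adjusted by Benjamini-Hochberg over the 444 genes that reached 10 summed counts. Mir214 was higher in replicate 1 by 1.50-fold (95% interval 1.47 to 1.52), with a log10 of its adjusted exact binomial p of -666. Mir199b was higher by 1.16-fold (1.08 to 1.25, adjusted exact binomial p = 0.000101) and Mir199a-2 by 1.22-fold (1.05 to 1.41, adjusted exact binomial p = 0.0155). Mir199a-1, at 1.06-fold with an interval of 0.654 to 1.73, did not pass (adjusted exact binomial p = 0.905). So 3 of the 4 passed, all higher in replicate 1, where 53.2% of all tested genes passed in either direction and 45.3% passed as higher in replicate 1. Nothing particular to the 4 genes is read from this count. The test compares these libraries, not conditions.

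Most genes stood higher in replicate 1 per total count. Over all 444 genes the log2 ratio (replicate 1 over replicate 2) had a median of 0.27, and over the 4 genes one of 0.25. Relative to the median of all genes, Mir214 stood at 0.31, Mir199a-2 at 0.02, Mir199b at -0.05 and Mir199a-1 at -0.18. With TMM, the trimmed-mean scaling of edgeR, under which 39.9% of all genes passed, Mir214 kept a log2 ratio of 0.29 (adjusted exact binomial p = 1.11e-169). Mir199b then stood at -0.068 (adjusted exact binomial p = 0.344), Mir199a-2 at -0.0040 (adjusted exact binomial p = 1.0) and Mir199a-1 at -0.20 (adjusted exact binomial p = 0.701). Mir214 passed as higher in replicate 1 with total counts, TMM, DESeq2 size factors and a total without the 10 most abundant genes. The Mir199 genes turned direction between total and TMM scaling. Of 186 genes with at least 1000 summed counts, 23 had a larger log2 ratio than Mir214 and 99 a larger one than Mir199b.

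**Figure D5:**
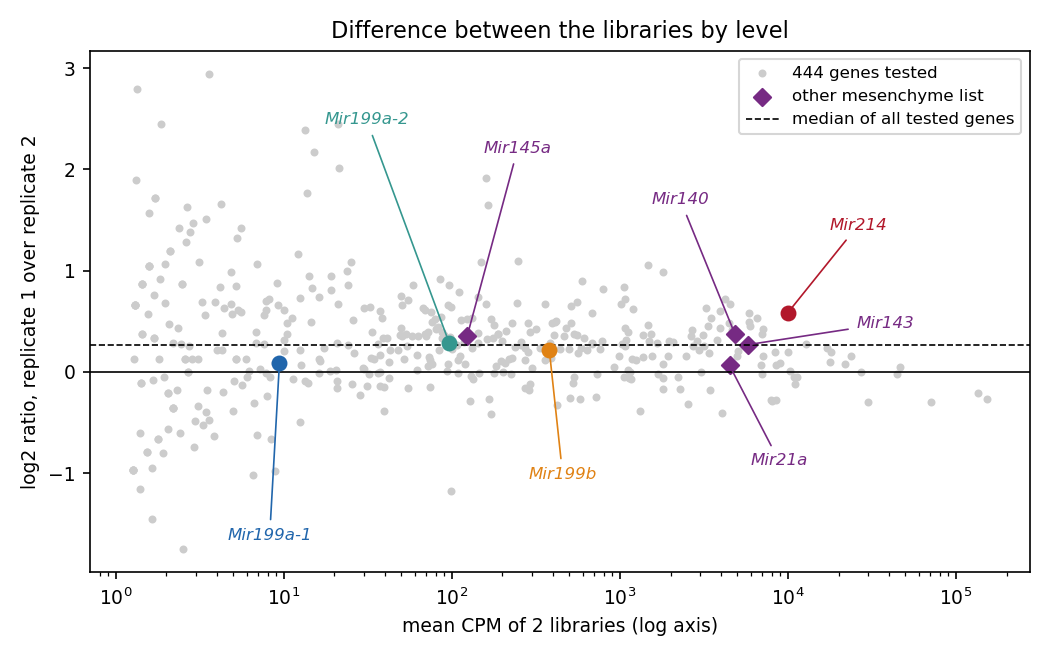
Log2 ratio of replicate 1 over replicate 2 (total counts, pseudocount 0.5) against mean CPM (log axis) for the 444 genes tested, with the 4 genes as coloured circles and the other mesenchyme list as diamonds. The dashed line is the median of all tested genes, 0.27; Mir214 lies above it at 0.58, while Mir199b (0.22) and Mir199a-2 (0.28) lie near it.

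Genes with a log2 ratio nearest to that of Mir214 were Mir652, Mir323 and Mir541, among genes with at least 1000 summed counts. Mir652 had 6986 and 4672 CPM in replicates 1 and 2 and a log2 ratio of 0.58, as Mir214 had. Mir323 (819 and 547 CPM) lay 0.0022 above Mir214, and Mir541 (4731 and 3125 CPM) 0.017 above it. This likeness rests on 2 libraries and 1 ratio per gene, so it describes closeness in these data only.

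Other miRNA genes known from mesenchyme were present at levels between those of Mir214 and Mir199b, apart from one. Mir143 of smooth muscle had 6327 and 5251 CPM, the cartilage gene Mir140 5450 and 4192 CPM, and Mir21a, abundant in fibroblasts, 4589 and 4390 CPM. Mir145a, the cluster partner of Mir143, had 138 and 108 CPM, below Mir199b and above Mir199a-2. All 4 passed as higher in replicate 1 with total counts, but with TMM scaling only Mir140 did (log2 ratio 0.09, adjusted exact binomial p = 6.42e-09). Mir21a then passed as higher in replicate 2 (-0.22, adjusted exact binomial p = 1.97e-46), and Mir143 and Mir145a did not pass. Over all 444 tested genes, 201 passed as higher in replicate 1 with total counts and 81 with TMM. With TMM, 96 passed as higher in replicate 2. The summed share of the 4 Mir199 and Mir214 genes over that of this list was 0.754 in replicate 1 and 0.604 in replicate 2.

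The labelled tissue was checked against neural genes. Mir92b, abundant in neural progenitors, and Mir137 and Mir153, known from neurons, were well counted. The copies of Mir9 and Mir124 with a row, whose mature miRNAs recur in several hairpins, ranged from 1.56 to 200 CPM on average. Mir9-1 had no row used here, so the neural share lacks it. The neuronal Mir128-1 averaged 110 ± 41.5 CPM and Mir128-2 69.6 ± 20.6 CPM, higher in replicate 1 by 1.73-fold and 1.53-fold. Replicate 1 over replicate 2 was 1.11 for Mir92b, 0.997 for Mir9-3 and 0.885 for Mir9-2. With total counts, 5 of the 10 neural genes passed as higher in replicate 1 and 5 did not pass. Over all tested genes, 45.3% passed as higher in replicate 1. The Mir199 and Mir214 genes held 1.24% and 0.842% of counts, against 0.872% and 0.752% for the 10 neural genes with a row used here. That is a ratio of 1.43 in replicate 1 and 1.12 in replicate 2, in reads counted for a gene. Reads of the Mir9 and Mir124 copies that mapped to several places are missing from the neural share, and their number was not tested. The ratio thus does not rank these sets by the abundance of their mature miRNAs. In bulk tissue, fewer cells of a type and less RNA per cell cannot be told apart.

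Marker lists of other cell types were read beside Mir214, per total count unless stated. The endothelial gene Mir126a took 2.49% of counts in replicate 1 and 2.23% in replicate 2. Skeletal and cardiac muscle genes took 0.148% and 0.0949%, with 8 of 9 names having a row used here and Mir133a-1 and Mir133a-2 at 0 in both libraries. Reads mapped to several places are in none of these shares, so a count of 0 does not show that a mature miRNA was absent. Erythroid and leukocyte genes took 0.0802% and 0.0568% over 4 genes, none at 0. Replicate 1 over replicate 2 was 1.56 for muscle and 1.41 for blood, beside 1.48 for the Mir199 and Mir214 genes, 1.18 for the other mesenchyme list, 1.16 for neural genes and 1.12 for Mir126a. As log2 ratios of summed counts these are 0.64 for muscle, 0.50 for blood and 0.56 for the Mir199 and Mir214 genes. The other mesenchyme list stood at 0.24 and neural genes at 0.21. These sums lean on the most abundant genes. Per gene, the medians of tested genes were 0.27 for muscle, 0.50 for blood and 0.25 for the Mir199 and Mir214 genes. They were 0.31 for other mesenchyme and 0.30 for neural genes, beside 0.27 over all tested genes. Mir126a, a single gene, stood at 0.16. With TMM scaling Mir126a passed as lower in replicate 1 (log2 ratio -0.13, adjusted exact binomial p = 7.14e-77), and it was lower with DESeq2 size factors and without the 10 most abundant genes too. Among muscle genes, Mir206 of skeletal muscle was higher in replicate 1 with 1358 and 761 CPM, and the cardiac Mir208b was lower with 60.1 and 136 CPM. Mir208a was lower too, with 4.31 and 8.88 CPM, while Mir499 was higher, with 18.9 and 10.6 CPM. With total counts, 2 of the 5 tested muscle genes passed as higher in replicate 1, 2 as lower, and Mir133b did not pass. Over all 444 tested genes, 201 passed as higher, 35 as lower and 208 did not pass. Whether the content of these cell types plays a part in the difference of Mir214 was not tested.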

How the data were processed

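Small RNA libraries of 2 pools of neural tube were used. The deposited values are raw read counts per miRNA gene for mm10 and annotation M4, per the file headers. The 3 unnamed count columns were read as either, own and opposite strand. The first is the sum of the others for every gene. The second was taken as own strand from its place and because it holds nearly all gene counts, with 78467 and 68621 counts in the column taken as opposite. Own-strand counts were used. For aligner, counter and trimming, nothing is given in the sources used here. Replicates 1 and 2 held 8530505 and 7655421 reads, of which 3708662 and 4055883 were own-strand gene counts. Rows naming no gene were 56.5% and 47.0% of reads and were left out of totals.

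The labels call the libraries biological replicates with separate pools, but list one donor entry for both. Symbols and places came from GENCODE M21 (1894 of 1973 rows matched) and sequences from RefSeq (GRCm38.p6, all 4 hairpins matched). CPM is the count per 1000000 own-strand counts. The 4 genes and all lists were chosen with earlier results of these data known. Named genes were the 4, genes sharing a seed or mature miRNA or lying within 10 kb on the same strand, the other mesenchyme list, and those next in rank or nearest in ratio to Mir214. Markers of other cell types were named from lists.

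The exact binomial test (threshold 0.05, adjusted over all genes tested) measures counting error only and treats every read as a separate molecule, so with PCR copies its p is too small. It was tested on simulated data. In R 4.3.3, edgeR 4.0.16 gave the TMM factors and DESeq2 1.42.0 its size factors. Everything else ran in Python 3.11.15 with scipy 1.17.1, pandas 2.3.3 and numpy 2.4.6. Alternatives were other strands, totals, scalings, filters and pseudocounts, and each library alone.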

Additional observations from a re-analysis of the deposited data

How the results depend on the processing

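In reads of either strand, the ratios between the 4 genes and their levels moved by less than the spread between the libraries. For the ratios this had to hold, since no gene of the 4 had more than 1 opposite-strand count in a library. Each library alone lies within the SD of 2 libraries by construction, so leaving 1 out does not test the ratios or levels. With reads mapped to several places in the total, the summed share was 0.671%, Mir214 stood at 6400 CPM, Mir199b at 245, Mir199a-2 at 62.2 and Mir199a-1 at 6.08. In a total without the 10 most abundant genes, the share was 2.41% and the genes stood at 22983, 885, 225 and 22.0 CPM. Both follow from the larger or smaller total. The number of the 4 genes that passed between the libraries was 1 with TMM scaling, 1 with DESeq2 size factors and 1 with the total without the 10 most abundant genes, each time Mir214, against 3 with total counts. Over all tested genes, 39.9%, 41.0% and 41.4% passed under these 3 settings, against 53.2% with total counts. Nothing particular to the 4 genes is read from these counts. Mir199b turned to a log2 ratio of -0.068 with TMM and -0.049 with DESeq2, and Mir199a-2 to -0.0040 with TMM. Mir199a-1, which passed under none of these, turned to -0.20 with TMM, -0.18 with DESeq2 and -0.12 without the 10 most abundant genes, against 0.09 with total counts. Filters on low counts changed no call among the 4 genes where they entered the test. A pseudocount of 1 enters the log2 ratio and not the test, so it could change no call. Over all genes, 229 of 724 tested passed without the filter (31.6%), against 236 of 444 with it (53.2%). Mir199a-1 left the test at 100 summed counts. No paired analysis was possible because there is a single group. With 1 library left out no test between libraries exists. With 73 summed counts, Mir199a-1 could differ by up to 1.73-fold unseen.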

Other observations

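Reads on the strand opposite the 4 hairpins were nearly absent, though each lies opposite a dynamin gene. Mir214 had 0 such counts in replicate 1 and 1 in replicate 2, and Mir199b, Mir199a-2 and Mir199a-1 had 0 in both, within the limit of 3 counts that a count of 0 allows. The annotated hairpin Gm23363, which lies 116 bp from Mir199b on the same strand, had 2 counts in replicate 1 and 1 in replicate 2.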
